A study of Homo sapiens with 6 samples.

Results

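STAT2, STAT3, STAT5A, STAT5B, STAT6, the Janus kinases JAK1, JAK2 and TYK2, and the feedback inhibitor SOCS3 were followed in KGN cells depleted of FOXL2. These 9 genes were taken by their Ensembl identifiers from tables of 60671 genes. The rule that chose them uses no measured value, but it was written with earlier results of these data known. All 9 passed the filter on low counts, which left 15663 genes for testing.

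Janus kinases sit on the cytoplasmic tails of cytokine receptors. When a ligand brings the receptor chains together they phosphorylate the tails and the STAT proteins that dock there, and paired STATs move to the nucleus and act as transcription factors. SOCS3 is itself a classical target of STAT3 and binds the receptor gp130 and the kinases, which closes a negative feedback loop. In granulosa cells, the somatic cells that surround the oocyte, cytokines of the gp130 group and prolactin signal through this pathway. Transcript levels say nothing about the phosphorylation that activates it.

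KGN is a human granulosa tumour cell line, and the cells used here were labelled FOXL2 WT/WT, after genome editing that gave them wt alleles of this forkhead transcription factor. Every library came from these cells, grown in the same medium. The 3 FOXL2 siRNA libraries each received 30 pmol of a pool of 3 siRNAs out of a set of 4, of which 1 was in every pool, and the 3 control siRNA libraries received the same amount of a scrambled siRNA. RNA was taken at 30 h and sequenced as single reads from stranded mRNA libraries. Since each pool lacked a different siRNA, the FOXL2 siRNA libraries repeat the depletion and not the mixture. Different pools mean separate transfections, so the spread among FOXL2 siRNA libraries also holds any effect of the mixture. The labels do not say that libraries came from separate cultures, and the spread among control siRNA libraries may be technical. The p-values measure the spread between these libraries. In bulk RNA, less transcript per cell and fewer cells that make it cannot be told apart.

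The libraries held between 23843192 and 28791954 expected counts, the read numbers that RSEM estimates per gene. FOXL2 itself had a TMM-normalized CPM (read counts scaled to library size) of 9.87, 9.70 and 10.8 under control siRNA and of 2.63, 3.30 and 2.36 under FOXL2 siRNA, a log2 fold change of -1.88 (SE 0.142, adjusted p = 0.00267 by edgeR's quasi-likelihood test). FOXL2 siRNA replicate 2 stood apart from the others. Its median absolute log2 difference was 0.172 and 0.174 from the other 2 libraries of its condition, against 0.122 between those 2 and 0.075 to 0.116 between control siRNA libraries. Granulosa markers were uneven. NR5A1, FST, STAR and AMH had mean TPM values over the 6 libraries of 36.6, 69.4, 16.0 and 26.8, whereas FSHR and WT1 were listed at 0 in all libraries and CYP19A1 had a mean of 0.157. Of 10 leukocyte markers 6 were listed at 0 in all libraries, and the summed TPM of the list was 73.0 to 86.3 in control siRNA and 52.8 to 70.5 in FOXL2 siRNA libraries, nearly all of it CD68, a lysosomal protein that other cells also make. The summed TPM of 8 endothelial markers was 2.64 to 3.90. That of 10 theca and stromal markers was 5506 to 6416 and overlapped between conditions. Of the 7 of them tested, 2 had a log2 fold change above 0 and 5 below, with a median of -0.020. At an unadjusted edgeR p below 0.05, 1 was higher and 1 lower (13.5% of genes tested, either direction). ACTA2, smooth muscle actin, was higher in every FOXL2 siRNA library (152, 152 and 202 against 269, 205 and 210 CPM, log2 fold change 0.44, edgeR adjusted p = 0.233, DESeq2 adjusted p = 0.0331). The part of these marker values in the results was not tested.

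STAT5A and STAT5B needed care before their values were read, because their transcripts share sequence over more than the length of a read. STAT3 lies on chromosome 17 between 42313324 and 42388568 (GRCh38, minus strand). STAT5A lies 1380 nucleotides from it, from 42287547 to 42311943 on the plus strand, and STAT5B follows after a further 10839 nucleotides, from 42199168 to 42276707 on the minus strand. SOCS3 is on the same chromosome (78356778 to 78360077). STAT2 (56341597 to 56360155) and STAT6 (57095408 to 57132139) are on chromosome 12, JAK1 is on chromosome 1 (64833229 to 64966504), JAK2 on chromosome 9 (4984390 to 5128183) and TYK2 on chromosome 19 (10350529 to 10380676). In the coding sequences of GENCODE v29, STAT5A (2382 nucleotides) and STAT5B (2361 nucleotides) held an identical run of 429 nucleotides. The run spans exons 7 to 10 of STAT5A (chr17:42299764-42301277) and exons 6 to 9 of STAT5B (chr17:42218328-42219829), and in both genes it occupies positions 564 to 992 of the coding sequence. Both edges of this run are shown because a read inside it cannot be assigned to either gene. Capitals mark the first or last 40 of the identical nucleotides and lower case the 20 coding nucleotides outside them, read 5′ to 3′ on the strand of the gene.
STAT5A, 5′ edge: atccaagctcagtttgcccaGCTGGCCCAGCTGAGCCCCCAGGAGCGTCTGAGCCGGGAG
STAT5B, 5′ edge: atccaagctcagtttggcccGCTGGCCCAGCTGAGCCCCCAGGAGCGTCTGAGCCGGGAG
STAT5A, 3′ edge: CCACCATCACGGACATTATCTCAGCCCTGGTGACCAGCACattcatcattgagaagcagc
STAT5B, 3′ edge: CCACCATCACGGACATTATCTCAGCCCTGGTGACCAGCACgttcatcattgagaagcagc

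Of the words of 75 nucleotides, the read length, 421 were found in both genes, which is 7.06% of the words of STAT5A transcripts and 6.46% of those of STAT5B. Among the pairs that the 9 genes can form, this was the only one that shared any such word. The longest identical coding stretch of STAT3 with any other of the 9 was 15 nucleotides, with STAT2. The expected counts bore the mark of the shared sequence, of which the run of 429 nucleotides is the longest coding part and not the whole. Those of STAT5A and STAT5B were fractional and added up to a whole number in every library, from 30.70 and 1274.30 in control siRNA replicate 1 to 17.12 and 923.88 in FOXL2 siRNA replicate 2. STAT5A took 1.82% to 3.09% of the sum. The division between them is therefore an estimate, and the sum is given beside each of their results.

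Levels were compared between genes in TPM, which is scaled by transcript length. Among the STAT genes in control siRNA libraries, STAT6 (76.0 ± 7.98 TPM, SD, n = 3) and STAT3 (61.0 ± 1.06) stood above STAT2 (20.2 ± 2.69), STAT5B (19.6 ± 1.11) and STAT5A (0.743 ± 0.189). STAT4, which was not among the 9 genes, had between 2 and 7 counts per library and was not tested. Of the kinases, JAK1 (76.2 ± 3.09) and TYK2 (65.6 ± 6.12) stood far above JAK2 (4.83 ± 0.296). JAK3, the kinase of lymphoid cytokine receptors, had at most 2 counts in any library. SOCS3 stood at 16.6 ± 1.22 TPM.

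**Figure D1:**
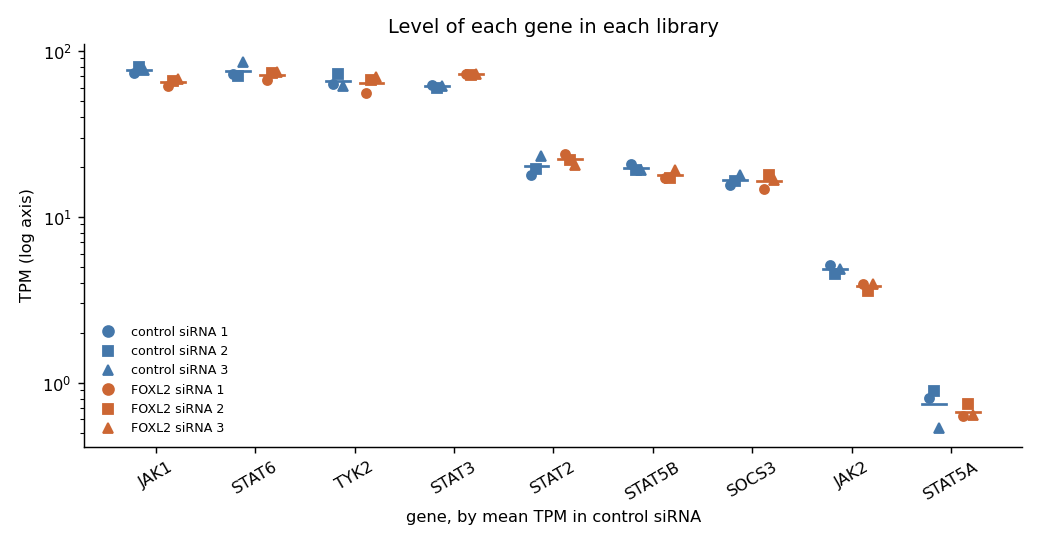
TPM on a log axis for the 9 genes, ordered by their control mean, with 1 symbol per library and a bar at the mean of each condition. STAT3 moves from 61.0 to 72.2 TPM, and STAT5A is the lowest in both.

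The order held some ties. In control siRNA libraries the ranges of JAK1 and STAT6, of STAT6 and TYK2, of TYK2 and STAT3, and of STAT2 and STAT5B overlapped, and the other neighbours were separate. After FOXL2 siRNA, STAT3 (72.2 ± 1.01 TPM) came first, but its range overlapped that of STAT6 (71.6 ± 4.16), which was followed by JAK1 (65.0 ± 3.10) and TYK2 (63.9 ± 7.25), again with overlap. STAT5B (17.8 ± 1.12) overlapped SOCS3 (16.4 ± 1.70).

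Depletion of FOXL2 was followed by small differences in this family. By edgeR's quasi-likelihood test, 0 of the 9 genes had an adjusted p below 0.05, where 40 of 15663 genes (0.255%) did. At an unadjusted p below 0.05 there were 2 of 9, STAT3 and JAK1, against 13.5% of genes tested. DESeq2 called 1 of the 9, STAT3, where it called 3.06% of the genes to which it gave an adjusted p. Without FOXL2 siRNA replicate 2, edgeR also called STAT3 and no other of the 9, where it called 3.61% of genes. The CPM values of the conditions did not overlap for 3 of the 9, against 20.5% of genes tested. STAT3 was the only one of the 9 that was higher in every FOXL2 siRNA library than in any control (9.96% of genes tested), and STAT5B and JAK1 were lower in every one (10.6%). Log2 fold changes were above 0 for 2 genes and below 0 for 7, with a median of -0.055, beside 0.006 over all genes tested.

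**Figure D2:**
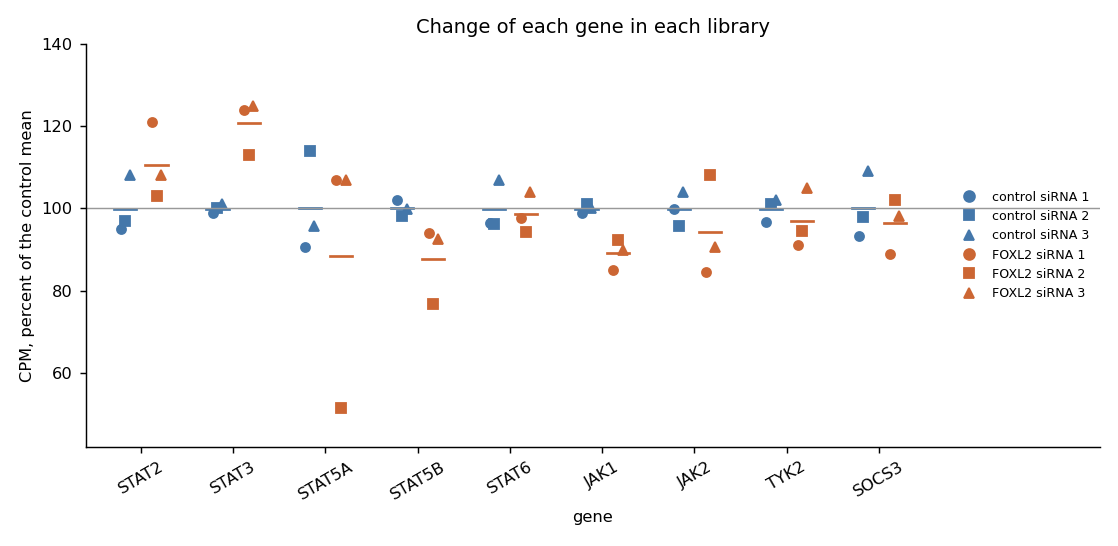
CPM of each gene as a percentage of its control mean, with 1 symbol per library and a bar at the mean of each condition. STAT3 lies at 113 to 125% in FOXL2 siRNA libraries and at 98.9 to 101% in control siRNA libraries, JAK1 at 84.9 to 92.3%, and the low STAT5A point (51.5%) is FOXL2 siRNA replicate 2.

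STAT3 carries the signal of the gp130 cytokines, among them IL-6, LIF and IL-11. Its level was 145, 147 and 148 CPM in control siRNA libraries and 182, 166 and 183 CPM in FOXL2 siRNA libraries. The lowest FOXL2 siRNA library was the one that stood apart, and it too lay above every control. The control values differed by less than the gap to it, with 147 ± 1.42 against 177 ± 9.34 (SD, n = 3). The log2 fold change was 0.27 (SE 0.0603, 95% interval 0.14 to 0.41), a 1.21-fold difference, with an edgeR p of 0.00142 and an adjusted p of 0.115. Larger absolute changes were found in 19.9% of the genes tested. DESeq2 gave the same log2 fold change with an adjusted p of 0.0162, and edgeR without FOXL2 siRNA replicate 2 gave 0.31 with an adjusted p of 0.0120. Leaving out any other single library gave edgeR adjusted p-values between 0.183 and 0.479.

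On the TPM scale STAT3 was at 62.2, 60.0 and 60.9 in control siRNA and 72.8, 71.0 and 72.8 in FOXL2 siRNA libraries. Here FOXL2 siRNA replicate 2 lay beside its replicates, and the ratio of means was 1.18. The effective length that RSEM gave STAT3, a mean over its isoforms weighted by their estimated use, was 3470, 3652 and 3524 nucleotides in control siRNA and 3669, 3695 and 3727 nucleotides in FOXL2 siRNA libraries. It was longer by 148 nucleotides or 4.18% (two-sided exact permutation p = 0.1, and 0.450 adjusted over the 9 genes, where no p under 0.1 is possible). STAT3 was the only one of the 9 whose effective lengths did not overlap, against 9.97% of genes tested. With effective lengths as offsets in DESeq2, the log2 fold change of STAT3 was 0.24 (adjusted p = 0.0337). The same offsets in edgeR gave 0.24 with an adjusted p of 0.144.

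**Figure D3:**
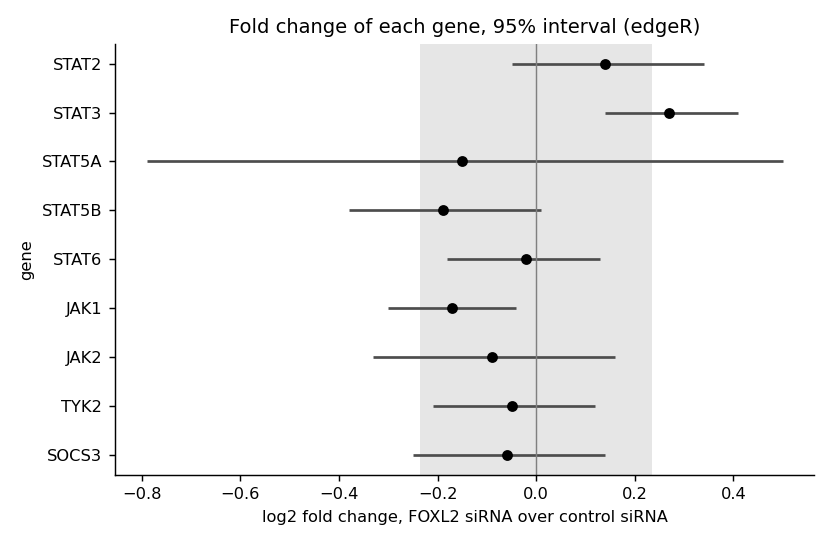
Log2 fold change of the 9 genes with its 95% interval from edgeR. The band spans plus and minus 0.235, which holds the changes of 75% of genes tested. The intervals of STAT3 (0.14 to 0.41) and JAK1 (-0.30 to -0.04) leave out 0, and that of STAT5A is the widest (-0.79 to 0.50).

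None of the paralogs tested was higher in every FOXL2 siRNA library than in every control, where only 9.96% of all genes tested were. STAT2, which acts with IRF9 in the interferon response, had 38.9, 39.7 and 44.3 CPM in control siRNA and 49.4, 42.2 and 44.1 CPM in FOXL2 siRNA libraries. Only FOXL2 siRNA replicate 1 lay above all controls. The log2 fold change was 0.14 (SE 0.0851, 95% interval -0.05 to 0.34, edgeR adjusted p = 0.494). STAT6, the factor of IL-4 and IL-13 signalling, had 134, 133 and 148 CPM in control siRNA and 135, 130 and 144 CPM in FOXL2 siRNA libraries. The conditions overlapped throughout, with a log2 fold change of -0.02 (SE 0.0687, 95% interval -0.18 to 0.13, edgeR adjusted p = 0.926).

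STAT5B, which with STAT5A mediates growth hormone and prolactin signals, had 50.7, 48.8 and 49.6 CPM in control siRNA and 46.7, 38.1 and 46.0 CPM in FOXL2 siRNA libraries. All FOXL2 siRNA libraries were below all controls, and FOXL2 siRNA replicate 2 was far the lowest. The log2 fold change was -0.19 (SE 0.0862, 95% interval -0.38 to 0.01, edgeR adjusted p = 0.384), and -0.11 without FOXL2 siRNA replicate 2. In TPM the conditions overlapped, with 20.9, 19.0 and 19.0 in control siRNA and 17.2, 17.0 and 19.0 in FOXL2 siRNA libraries. STAT5A rested on 17 to 42 counts per library, at 1.23, 1.55 and 1.30 CPM in control siRNA and 1.46, 0.702 and 1.46 CPM in FOXL2 siRNA libraries. FOXL2 siRNA replicates 1 and 3 were within the control range and replicate 2 was below it, so the log2 fold change of -0.15 (SE 0.285, edgeR adjusted p = 0.860) became 0.10 without replicate 2. The sum of both genes gave -0.19 (SE 0.0886, edgeR adjusted p = 0.394), as STAT5B alone did.

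STAT3 was also set against its paralogs and SOCS3 within each library, as a ratio of TPM values that does not depend on the library size. The 6 ratios share STAT3 and are not independent. The ratio of STAT3 to STAT5B was 2.97, 3.16 and 3.21 in control siRNA and 4.23, 4.18 and 3.82 in FOXL2 siRNA libraries. It was 1.31-fold higher in the mean and did not overlap (log2 difference 0.39, exact permutation test, two-sided p = 0.1, adjusted 0.2). With the sum of STAT5A and STAT5B in place of STAT5B the difference was also 0.39. The ratio to STAT6 was 0.862, 0.849 and 0.715 in control siRNA and 1.09, 0.966 and 0.977 in FOXL2 siRNA libraries, 1.25-fold higher and again without overlap (log2 difference 0.32, exact p = 0.1, adjusted 0.2).

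The ratio to STAT2 did overlap, with a log2 difference of 0.10 (exact p = 0.5), as did that to STAT5A, with 0.36 (exact p = 0.3). From counts the difference to STAT5A was 0.52 and the conditions did not overlap (exact p = 0.1), and from TPM it was 0.20 without control siRNA replicate 2 and 0.59 without control siRNA replicate 3. The ratios to STAT5B and STAT6 were thus apart on both scales, that to STAT2 on neither, and that to STAT5A only from counts. None of these tests can reach 0.05 with 3 libraries against 3.

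**Figure D4:**
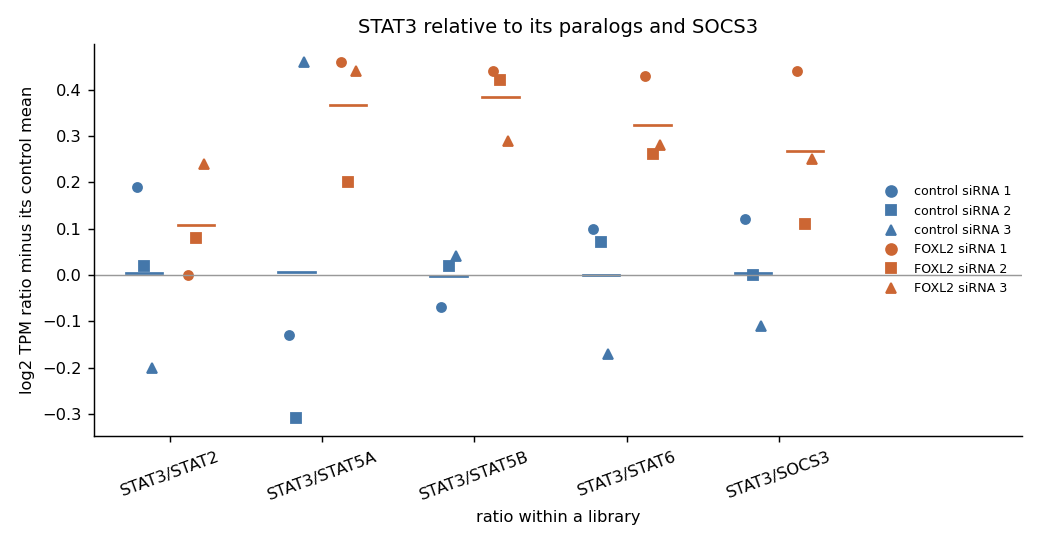
Log2 ratio of STAT3 to each gene in TPM within a library, as the difference from its control mean, with 1 symbol per library and a bar at the mean of each condition. Conditions are apart for STAT5B and STAT6 and overlap for STAT2, STAT5A and SOCS3.

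SOCS3 had 26.7, 28.0 and 31.1 CPM in control siRNA and 25.4, 29.1 and 28.1 CPM in FOXL2 siRNA libraries. The conditions overlapped, and the log2 fold change was -0.06 (SE 0.0878, 95% interval -0.25 to 0.14, edgeR adjusted p = 0.824). The ratio of STAT3 to SOCS3 in TPM was 4.01, 3.68 and 3.40 in control siRNA and 5.01, 3.96 and 4.39 in FOXL2 siRNA libraries. FOXL2 siRNA replicate 2 was below control siRNA replicate 1, and the log2 difference was 0.26 (exact permutation test, two-sided p = 0.2, adjusted 0.3). Taken from counts instead of TPM the difference was 0.32 and the conditions did not overlap (exact p = 0.1). A SOCS3 difference of the size measured for STAT3 (0.27) lies outside the interval of SOCS3.

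Among the kinases, JAK1 serves gp130 and interferon receptors. It had 198, 201 and 200 CPM in control siRNA and 170, 184 and 180 CPM in FOXL2 siRNA libraries. Every FOXL2 siRNA library was lower, and the controls lay close together. The log2 fold change was -0.17 (SE 0.0572, 95% interval -0.30 to -0.04), with an edgeR p of 0.0168 and an adjusted p of 0.271. In TPM JAK1 was at 76.2 ± 3.09 and 65.0 ± 3.10, also without overlap. DESeq2 gave an adjusted p of 0.187, and with effective lengths as offsets it gave -0.24 with an adjusted p of 0.0383, where that fit called 2.86% of genes. Both STAT3 and JAK1 were called in that fit, in opposite directions. With the same offsets in edgeR the log2 fold change of JAK1 was -0.23 (adjusted p = 0.166), and neither gene was called.

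JAK2, the kinase of growth hormone, prolactin and erythropoietin receptors, had a control mean of 14.2 CPM. The control siRNA libraries were at 99.9%, 95.7% and 104% of it and the FOXL2 siRNA libraries at 84.5%, 108% and 90.6%. FOXL2 siRNA replicate 2 was the highest of all libraries and the other 2 were the lowest. The log2 fold change was -0.09 (SE 0.109, 95% interval -0.33 to 0.16, edgeR adjusted p = 0.767). In TPM the picture differed, with 5.11, 4.52 and 4.85 in control siRNA and 3.94, 3.56 and 3.92 in FOXL2 siRNA libraries, so that all FOXL2 siRNA libraries were lower. RSEM gave JAK2 an effective length of 6831 nucleotides in FOXL2 siRNA replicate 2 and of 4132 to 4881 in the others, and TPM divides by that length.

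TYK2, which serves type I interferon and IL-12 receptors, had 74.5, 78.2 and 78.5 CPM in control siRNA and 70.2, 72.7 and 80.9 CPM in FOXL2 siRNA libraries. FOXL2 siRNA replicate 3 was above every control and the other 2 were below, with a log2 fold change of -0.05 (SE 0.0710, 95% interval -0.21 to 0.12, edgeR adjusted p = 0.821).

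The genes most like STAT3 over the 6 libraries, by the root mean square distance of log2 CPM centred on its mean, were DCAF7 (0.023), ZDHHC18 (0.028) and PPT1 (0.030). Their edgeR log2 fold changes were 0.29, 0.27 and 0.30, near that of STAT3 by the way they were chosen. Of the other members STAT2 was the nearest to STAT3, at a distance of 0.095 and rank 719, and STAT5A the farthest at 0.295. SOCS3 was most like GALNT2 (0.018), DNAJB12 (0.019) and UBAP2 (0.019), and of the members TYK2 was the nearest to it (0.077).

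**Figure D5:**
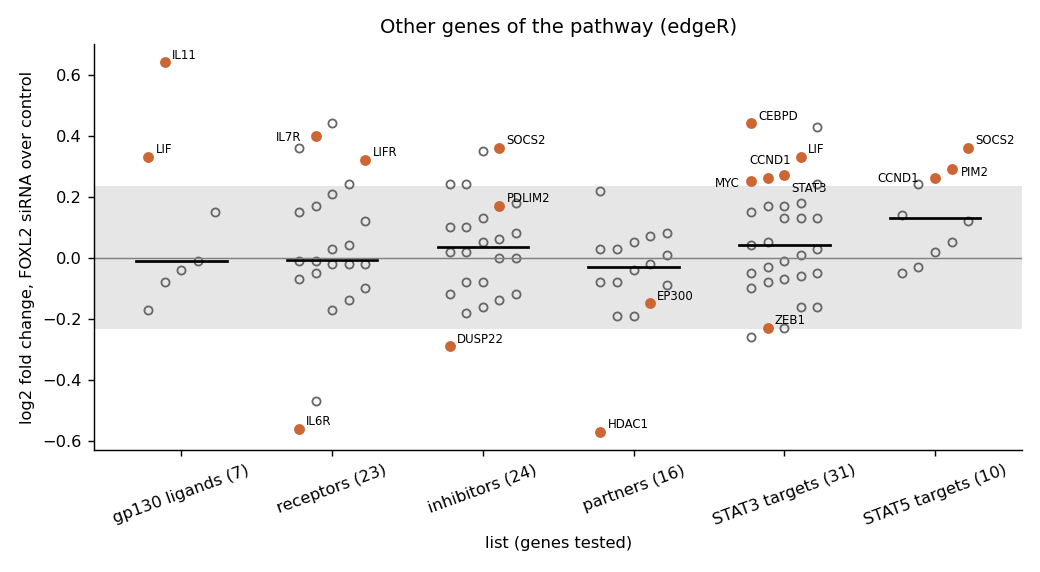
EdgeR log2 fold changes of the tested genes in 6 lists of the pathway, where filled symbols with names had an unadjusted p below 0.05, open symbols did not, and bars mark list medians. The band spans plus and minus 0.235, which holds 75% of genes tested, and no gene shown had an adjusted p below 0.05.

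The rest of the pathway was read from lists of known ligands, receptors, inhibitors, partners and targets. Across these lists DESeq2 called IL11, IL7R and STAT3 at an adjusted p below 0.05 and no other gene. It called 3.06% of all genes to which it gave an adjusted p. Of 7 gp130 ligands tested out of 10, edgeR called 0 at an adjusted p below 0.05 and 2 had an unadjusted p below 0.05 (13.5% of genes tested), both higher, and the list median was -0.011. IL11 had 23.0, 26.3 and 31.0 CPM in control siRNA and 56.6, 32.4 and 35.9 CPM in FOXL2 siRNA libraries. FOXL2 siRNA replicate 1 was far above the rest and the others lay just above the controls, with a log2 fold change of 0.64 (SE 0.201, edgeR adjusted p = 0.235, DESeq2 adjusted p = 0.0247). It was 0.35 without FOXL2 siRNA replicate 1 and reached 0.78 with another library left out. LIF had a log2 fold change of 0.33 (edgeR adjusted p = 0.324) with overlap and of 0.10 with effective lengths as offsets, and CLCF1 had -0.04 (edgeR adjusted p = 0.852).

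Of 23 receptor genes tested out of 40, edgeR called 0, 3 had an unadjusted p below 0.05 (13.5% of genes tested), 2 of them higher and 1 lower, with a list median of -0.008. IL7R, a receptor chain for IL-7 and TSLP, had 42.6, 40.0 and 49.7 CPM in control siRNA and 50.6, 66.2 and 58.3 CPM in FOXL2 siRNA libraries. All FOXL2 siRNA libraries were higher (log2 fold change 0.40, edgeR adjusted p = 0.193, DESeq2 adjusted p = 0.0380). LIFR, the receptor chain for LIF, had a log2 fold change of 0.32 (edgeR adjusted p = 0.214), and it had -0.03 with effective lengths as offsets. IL6ST, which encodes gp130, had 175, 187 and 168 CPM in control siRNA and 177, 277 and 173 CPM in FOXL2 siRNA libraries, so that only FOXL2 siRNA replicate 2 was high. OSMR, the oncostatin M receptor, had -0.01 (edgeR adjusted p = 0.974).

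Of 24 inhibitors tested out of 27, edgeR called 0, 2 were higher and 1 lower at an unadjusted p below 0.05 (13.5% of genes tested), and the list median was 0.035. SOCS2, an inhibitor of growth hormone signalling and a STAT5 target, had 9.75, 9.78 and 9.65 CPM in control siRNA and 15.0, 10.2 and 12.3 CPM in FOXL2 siRNA libraries. It was higher in every FOXL2 siRNA library, by a log2 fold change of 0.36 (SE 0.138, edgeR adjusted p = 0.315, and 0.21 to 0.48 with 1 library left out), where SOCS3 was not. DUSP22, a phosphatase, had -0.29 (edgeR adjusted p = 0.281), and ELOB and NDUFA13, the most abundant of the list, had 0.02 and 0.05.

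All 16 partners and adaptors were tested, edgeR called 0, 2 were lower at an unadjusted p below 0.05 (13.5% of genes tested, either direction), and the list median was -0.030. HDAC1, a deacetylase, had 139, 142 and 138 CPM in control siRNA and 130, 68.2 and 83.1 CPM in FOXL2 siRNA libraries. FOXL2 siRNA replicate 1 was near the controls and the other 2 were far below (log2 fold change -0.57, SE 0.193, edgeR adjusted p = 0.267, and -0.88 to -0.39 with 1 library left out). EP300, an acetyltransferase and coactivator, had -0.15 (edgeR adjusted p = 0.328), and the nuclear transport factors KPNB1 and XPO1 had -0.08 and 0.01.

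Textbook targets of STAT3 numbered 41, of which 31 were tested. EdgeR called 0, 5 were higher and 1 lower at an unadjusted p below 0.05 (13.5% of genes tested), and the median log2 fold change was 0.041, beside 0.006 over all genes tested. STAT3 itself belongs to this list and is 1 of the 5. MYC, a regulator of growth, had 98.7, 104 and 109 CPM in control siRNA and 125, 116 and 129 CPM in FOXL2 siRNA libraries. All FOXL2 siRNA libraries were higher, with a log2 fold change of 0.25 (SE 0.0669, edgeR adjusted p = 0.174). DESeq2 gave an adjusted p of 0.0718, and with effective lengths as offsets it gave 0.28 (adjusted p = 0.0129). ZEB1, a repressor of epithelial genes, was the target with the lower level, at 69.8, 73.2 and 70.6 CPM in control siRNA and 58.1, 67.7 and 57.1 CPM in FOXL2 siRNA libraries. Its log2 fold change was -0.23 (edgeR adjusted p = 0.276). DESeq2 gave an adjusted p of 0.193, and with the offsets it gave -0.30 (adjusted p = 0.0140). MMP2 and HIF1A, the most abundant of the list, had -0.08 and 0.03 (edgeR adjusted p = 0.663 and 0.874). Of 10 STAT5 targets tested out of 14, edgeR called 0 and 3 were higher at an unadjusted p below 0.05 (13.5% of genes tested, either direction), with a median of 0.131, beside 0.006 over all genes tested. CCND1, which encodes cyclin D1 and is on both target lists, had 0.26 (SE 0.0987, edgeR adjusted p = 0.310) with overlap, and BCL2L1 had 0.05.

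The sequences of the 9 genes were searched for features linked to FOXL2 and STAT binding. The study describes FOXL2 as binding RNA rich in G doublets, and a run of 8 GG pairs spaced by 1 to 4 nucleotides was found in the longest transcript of 2 of the 9 genes, STAT6 and SOCS3, against 19.3% of tested genes. In STAT6 (transcript of 4034 nucleotides) it lay in the 5′ UTR and in SOCS3 (2734 nucleotides) in the 3′ UTR, and the longest STAT3 transcript held none. The pattern searched is looser than the study's consensus. Only the longest transcript in GENCODE v29 was searched, which for STAT2 had 3278 nucleotides and 11 exons, against 24 exons for STAT3. GENCODE v29 held 12 of the 24 STAT2 and 5 of the 21 JAK1 transcripts named in the deposited data, so the others were not searched. The study itself compared its genes with a published list of transcripts found by stops to reverse transcription, which was not used here. RefSeq gives 17 promoter windows for the 9 genes (GRCh38.p14, 250 bases before to 50 after each start), and both strands were searched. For STAT5B, STAT6 and SOCS3 no window held the 5′ end of the gene in GENCODE v29, so that end was not searched. TTCNNNGAA, the STAT site, was found in 0 windows, against 7.66% of all windows, and the forkhead core TAAACA in 0, against 12.3%. The same half-sites with a spacer of 4 bases, which STAT6 prefers, were found once, in STAT5A, against 6.44%. Its 10 letters stand in capitals with 10 bases on each side, because it was the only match in these windows.
STAT5A, chr17:42287210-42287219: ttttttttttTTCCTCTGAAgttaaaagaa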

How the data were processed

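The samples were 6 RNA-seq libraries of KGN cells, 3 per condition, grouped by the siRNA named in the labels. The authors aligned single reads with STAR 2.7.6a and estimated expression with RSEM 1.3.1, per the labels and the study's methods. The submitters' processing notes name GRCm38, a mouse build, whereas the deposited tables hold human Ensembl identifiers. The annotation release is not given in the sources used here. The deposited values used were the expected count, an estimated count that is not normalized, TPM, which the authors' run of RSEM scaled to length and library, and the effective length. FPKM was not used.

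Expected counts were rounded. Genes were kept by filterByExpr, normalized by TMM and compared with the quasi-likelihood test of edgeR 4.0.16 in R 4.3.3, with Benjamini-Hochberg adjustment over all 15663 genes and a threshold of 0.05. The test was tested on simulated data. Ratios and effective lengths were compared with exact permutation tests. Alternatives were DESeq2 1.42.0, limma 3.58.1 on counts (voom) and on log2(TPM + 1) or log2(TPM + 0.1), DESeq2's size factors, effective lengths as offsets, no filter, the replicate number as a block, and each library left out. Any 2 libraries of a condition differed by more than sampling noise.

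The members and lists were chosen with earlier results of these data known. The genes named are the 9 members, FOXL2, STAT4, JAK3, in each list every gene called, otherwise the 2 smallest p-values, and the 2 highest TPM, and the 3 profiles nearest to STAT3 and to SOCS3. Markers named beyond this rule, and ZEB1, were picked after their values were seen. A further gene that this rule names is not reported here. Loci and transcripts are those of GENCODE v29 (GRCh38), which may not be the authors' release. Promoters are from RefSeq. Protein sequences and the letters of the siRNAs were not used here.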

Additional observations from a re-analysis of the deposited data

How the results depend on the processing

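The number of genes called was the result that moved most. Against 40 in edgeR, there were 353 with DESeq2, 346 with effective lengths as offsets in DESeq2, 69 without a filter, and 13 with limma on log2(TPM + 0.1) and on log2(TPM + 1). Leaving out 1 library gave 2 to 579 calls, 2, 3 and 2 without control siRNA replicates 1, 2 and 3, and 105, 579 and 9 without FOXL2 siRNA replicates 1, 2 and 3. With the replicate number as a block, edgeR called 11 and DESeq2 189. The correlations of same-numbered libraries were -0.0233, 0.0659 and 0.0421, so the numbers were not taken to pair the samples. With the replicate block STAT3 had a log2 fold change of 0.27 and an adjusted p of 0.176 in edgeR and 0.0639 in DESeq2. The other causes were not tested.

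STAT3 passed the threshold with DESeq2 (0.27), with effective lengths as offsets in DESeq2 (0.24) and without FOXL2 siRNA replicate 2 (0.31), and lay between 0.25 and 0.31 with 1 library left out. JAK1 passed with the offsets in DESeq2 (-0.24). JAK2 passed in no fit, but its log2 fold change of -0.09 became -0.35 with the offsets. STAT5A changed sign without FOXL2 siRNA replicate 2 (0.10, range -0.31 to 0.10), STAT6 without FOXL2 siRNA replicate 2 (0.01) or control siRNA replicate 3 (0.03, range -0.06 to 0.03), and SOCS3 without control siRNA replicate 3 (0.01, range -0.10 to 0.01). The log2 differences of the ratios of STAT3 to STAT5B and to both STAT5 genes were 0.47 from counts. In the lists, DESeq2 called 1 gp130 ligand (IL11), 1 receptor (IL7R) and 1 STAT3 target (STAT3 itself), against 0 in edgeR. DESeq2 called 3.06% of the genes to which it gave an adjusted p. With 1 library left out, edgeR called 0 to 1 ligand, 0 to 1 inhibitor, 0 to 1 partner, 0 to 1 STAT5 target and 0 to 3 STAT3 targets. All but the partner were called without FOXL2 siRNA replicate 2, where edgeR called 3.61% of genes. The inhibitor and the STAT5 target were the same gene, SOCS2. The 3 STAT3 targets were STAT3 and MYC, which were higher, and ZEB1, which was lower, without FOXL2 siRNA replicate 2. The 1 partner was HDAC1, without FOXL2 siRNA replicate 1, where edgeR called 105 genes.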
